A study of Oryctolagus cuniculus with 12 samples.

Results

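The expression of 52 genes of mitosis and the mitotic spindle was measured in the conjunctiva of unoperated rabbit eyes and of eyes after trabeculectomy. The 52 genes were listed by name, with earlier results of these data known, and no threshold on a measured value was used. All 52 names were found among the 20566 genes of the deposited table, and all 52 passed the filter on low counts that 14835 genes passed. Of the 52 genes, 42 lie on 18 chromosomes of the rabbit genome OryCun2.0 and 10 lie on sequence not placed on a chromosome.

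The 12 libraries came from conjunctiva of female Japanese white rabbits, with 3 libraries in each of 4 groups. The right eyes underwent trabeculectomy (TL), in which aqueous humor is led past a flap of the sclera and collects beneath the conjunctiva as a filtration bleb. The operated eyes were treated with mitomycin C, a crosslinker of DNA, and per the study's methods betamethasone, a glucocorticoid, was given at the end of surgery. Conjunctiva with the bleb was taken 3 hours (TL3h), 3 days (TL3d), or 14 days (TL14d) after surgery. The control libraries came from conjunctiva of left eyes, which had no operation and no mitomycin C, so the effects of incision, mitomycin C, glucocorticoid, and time cannot be told apart here. The sources used here do not state which left and right eyes came from 1 animal or when the left eyes were taken.

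The total count per library lay between 27111276 and 38591374. Levels are CPM, counts scaled to a common library size, with library sizes adjusted by TMM, a method that sets the bulk of genes equal between libraries, and the 3 values of a group are given in the order of replicates 1 to 3. A fold change is on the log2 scale with its standard error (SE), and q is the adjusted p of edgeR's quasi-likelihood test over the 14835 genes. A gene was called higher or lower at a q of 0.05 or less. Conjunctival epithelium markers were present in every library, with a summed level of 5686 to 12748 CPM in controls, 5183 to 9365 CPM at 3 hours, 8852 to 21775 CPM at 3 days, and 12849 to 16943 CPM at 14 days.

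A cell that divides makes most of these proteins late in its cycle. CDK1 bound to a B-type cyclin starts mitosis, condensin compacts the chromosomes, kinesin motors build the spindle, and kinetochores tie each chromosome to it. The spindle checkpoint holds the anaphase-promoting complex (APC/C) back until all chromosomes are attached, after which securin and cyclin B are destroyed and the cell is pinched apart. In the conjunctiva, cells of the surface epithelium are renewed by division. In bulk tissue, fewer dividing cells and less of the RNA per dividing cell cannot be told apart.

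At 3 hours, 46 of the 52 genes were lower than in control and 1, BUB3, was higher, whereas 22.2% of all genes tested were lower and 23.2% were higher. The median log2 fold change of the 52 was −2.09, and that of all genes tested was 0.02. The 3 TL3h libraries lay below all 3 controls in 47 of the 52 genes, as they did in 28.3% of all genes. CENPA, KIF2C, and INCENP had the largest falls, with log2 fold changes of −3.22, −3.12, and −3.07. The 5 genes that were not called were BIRC5, ANLN, CKAP2, PTTG1, and NCAPH.

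At 3 days, 43 of the 52 genes were higher than in control and none was lower, whereas 10.6% of all genes tested were higher. Their median log2 fold change was 1.43, and that of all genes was −0.002. All 3 TL3d libraries exceeded all 3 controls in 51 of the 52 genes, as they did in 23.8% of all genes. CDK1, CDC25C, and NCAPG had the largest rises, with log2 fold changes of 2.12, 2.06, and 2.06. The 9 genes that were not called were MKI67, CDC25B, BUB3, BIRC5, INCENP, KIF18A, CENPA, CENPF, and ASPM. The number called at 3 days fell to 19 without TL3d 2, to 23 without TL3d 1, and to 23 without control 1, while the share of all genes called fell from 17.6% to 2.37%, 2.97%, and 3.25%, respectively. Of the 43 genes, 18 were called under each of the 20 alternative settings. Where the loss of a single call is described below, the settings and q values leave out the replicate block, under which 41 genes were called at 3 days.

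Between 3 hours and 3 days, all 52 genes differed. Of these, 51 were higher at 3 days and only BUB3 was lower, whereas 18.4% of all genes were higher and 19.0% were lower. The median log2 fold change was 3.46, and CENPA (5.06), KIF2C (5.001), and CDC25C (4.75) rose most. All 52 calls were made under each of the 20 alternative settings.

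**Figure D1:**
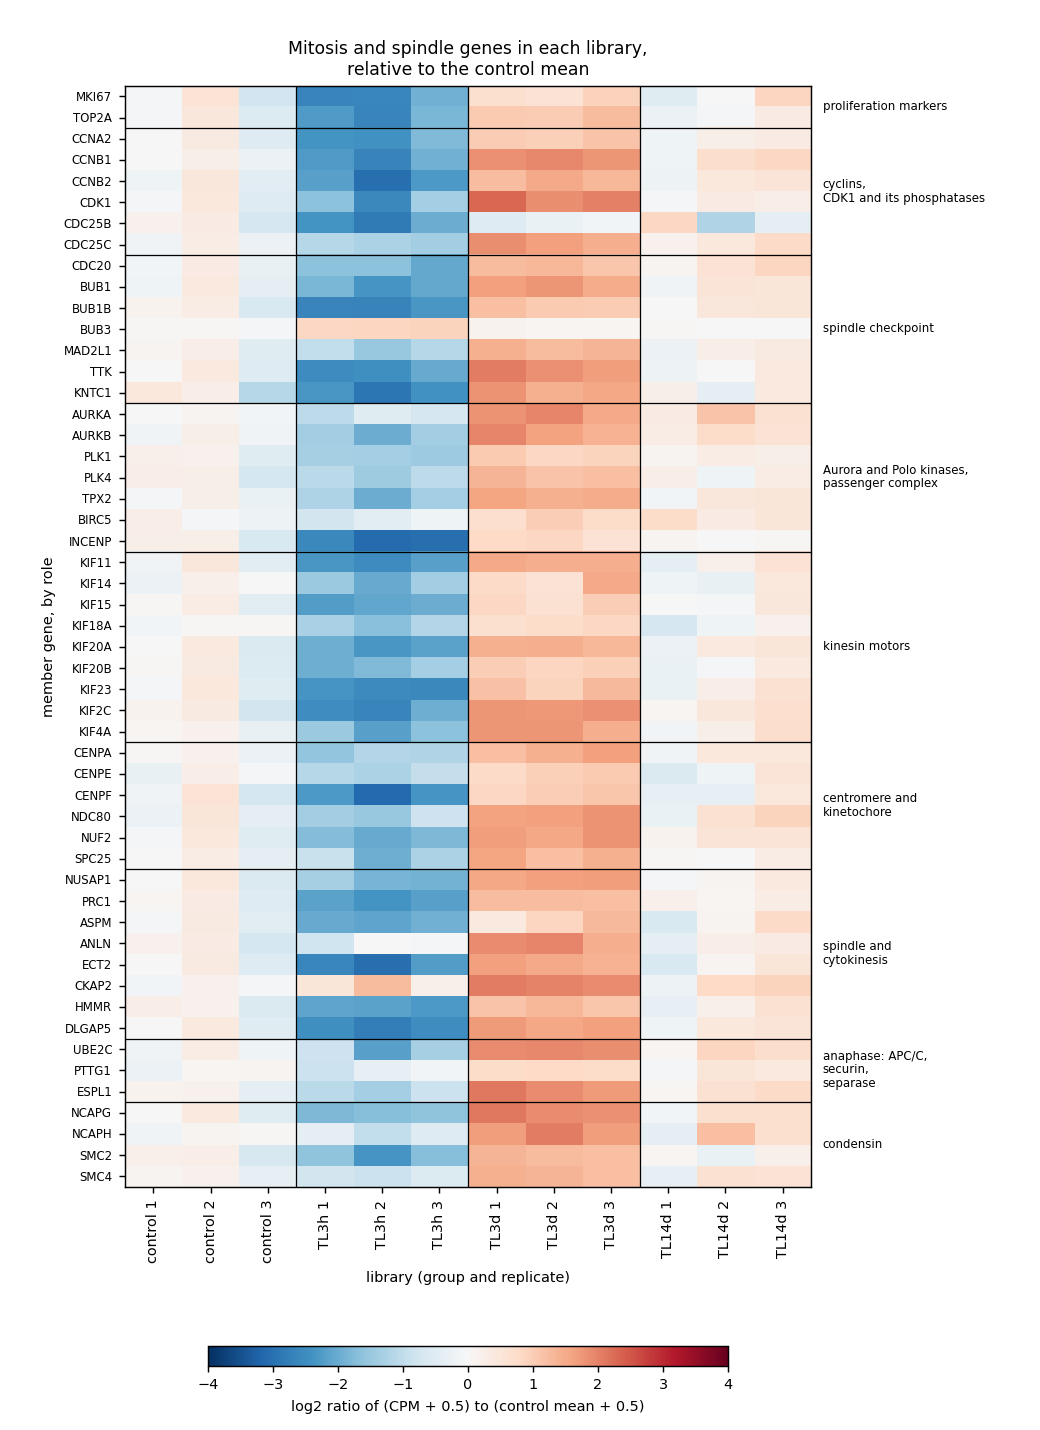
Each row is 1 of the 52 genes, sorted by role, and each column is 1 library; color shows the log2 ratio of CPM + 0.5 to the control mean + 0.5, blue below and red above control. The TL3h columns are blue in nearly all rows, except for BUB3 and CKAP2, the TL3d columns are red except for CDC25B and palest in BUB3, and control 3 and TL14d 1 are the palest or bluest columns of their groups.

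The cell cycle marks MKI67 and TOP2A both fell at 3 hours. MKI67, which encodes Ki-67, a protein that coats mitotic chromosomes and is the usual mark of cycling cells, was at 45.3, 69.96, and 28.2 CPM in controls and at 7.23, 7.38, and 12.2 CPM at 3 hours. It was at 75.2, 71.8, and 90.6 CPM at 3 days and at 34.2, 48.7, and 86.9 CPM at 14 days. The TL3h libraries were the lowest of all, and TL14d 3 reached the level of the TL3d libraries. The log2 fold change was −2.42 (SE 0.41, q = 0.001095) at 3 hours. At 3 days it was 0.73 (SE 0.39, q = 0.204), so that a rise of MKI67 was not called although the 3 TL3d libraries exceeded the 3 controls. Its q at 3 days ranged from 0.124 to 0.439 over the alternatives. TOP2A, the topoisomerase that untangles sister chromatids, was at 40.8, 58.4, and 28.8 CPM in controls, 8.42, 6.47, and 11.7 CPM at 3 hours, 88.9, 87.5, and 104 CPM at 3 days, and 35.8, 40.5, and 54.1 CPM at 14 days. It fell by 4.81-fold at 3 hours, with a log2 fold change of −2.27 (SE 0.30, q = 0.000255), and rose at 3 days, with 1.13 (SE 0.28, q = 0.0267). The call at 3 days was lost, with q between 0.0553 and 0.08796 when control 1, control 3, TL3d 1, TL3d 2, or TL3d 3 was left out.

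All 6 of the cyclins, CDK1, and its phosphatases fell at 3 hours, and 5 of 6 rose at 3 days. CDK1 (chr18:25387628-25403308, minus strand), the kinase that starts mitosis, was at 10.8, 15.2, and 7.6001 CPM in controls and 3.27, 1.45, and 4.06 CPM at 3 hours. It reached 57.1, 41.8, and 46.8 CPM at 3 days and was at 10.9, 14.1, and 13.6 CPM at 14 days. Controls and TL14d overlapped, TL3h lay below them, and TL3d lay above them. The log2 fold change of CDK1 was −1.93 (SE 0.36, q = 0.00188) at 3 hours and 2.12 (SE 0.36, q = 0.01098) at 3 days, a rise of 4.34-fold and the largest among the 52 genes. CCNB1 (chr11:85364692-85371347, plus strand), cyclin B1, was at 9.18, 10.96, and 7.801 CPM in controls, 1.54, 1.04, and 2.09 CPM at 3 hours, 34.3, 36.3, and 32.6 CPM at 3 days, and 8.14, 15.4, and 16.8 CPM at 14 days. Its log2 fold changes were −2.58 (SE 0.32, q = 0.000206) and 1.88 (SE 0.30, q = 0.01001) at 3 hours and 3 days. CCNB2, the second B-type cyclin, was at 6.08, 9.61, and 5.07 CPM in controls, 1.15, 0.415, and 1.02 CPM at 3 hours, 16.8, 20.5, and 18.3 CPM at 3 days, and 5.98, 9.43, and 10.1 CPM at 14 days. TL3h was below every control, and TL3d was above every control. Its log2 fold changes were −2.99 (SE 0.40, q = 0.000286) and 1.42 (SE 0.37, q = 0.0286), and the call at 3 days was lost, with q between 0.0552 and 0.0968 when control 1, control 2, control 3, TL3d 1, or TL3d 2 was left out.

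CCNA2, cyclin A2, which acts from DNA replication into early mitosis, was at 10.8, 13.9, and 7.27 CPM in controls, 1.61, 1.58, and 2.78 CPM at 3 hours, 22.2, 21.1, and 23.9 CPM at 3 days, and 9.41, 12.7, and 13.5 CPM at 14 days. It fell by 5.34-fold at 3 hours and rose by 2.099-fold at 3 days (q = 0.0317), and the latter call was lost, with q between 0.0557 and 0.09197 when control 1, control 2, control 3, TL3d 1, TL3d 2, or TL3d 3 was left out. The phosphatases CDC25B and CDC25C both activate CDK1, and only CDC25C was called at 3 days. CDC25C, the rarest of the 52 genes per length in controls, was at 0.973, 1.48, and 0.878 CPM in controls, 0.231, 0.166, and 0.1098 CPM at 3 hours, 5.396, 4.56, and 3.93 CPM at 3 days, and 1.31, 1.66, and 2.25 CPM at 14 days. The TL3h values stood for 6, 4, and 3 counts. Its log2 fold changes were −2.69 (SE 0.39, q = 0.000433) at 3 hours and 2.06 (SE 0.35, q = 0.0108) at 3 days. CDC25B was at 51.5, 58.2, and 28.4 CPM in controls and at 8.46, 6.099, and 11.2 CPM at 3 hours, a fall of 5.37-fold, with −2.42 (SE 0.49, q = 0.00273) on the log2 scale. It was at 32.2, 38.2, and 42.4 CPM at 3 days and at 81.9, 19.7, and 36.1 CPM at 14 days, and both groups overlapped the controls. The 3 TL14d libraries spread more widely than any other group of this gene. CDC25B was the only one of the 52 genes whose mean was highest in controls, and its log2 fold change at 3 days was −0.29 (SE 0.46, q = 0.682). Whether the changes of CDC25B and CDC25C at 3 days differ from each other was not tested.

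Among the 7 spindle checkpoint genes, 6 fell at 3 hours and the same 6 rose at 3 days. BUB3, which lies on unplaced sequence and encodes the protein that carries BUB1 and BUBR1 to kinetochores, rose at 3 hours instead. It was at 92.9, 93.9, and 85.7 CPM in controls and at 162, 167, and 169.7 CPM at 3 hours, where all 3 libraries lay far above every control. It was at 100.2, 95.4, and 96.9 CPM at 3 days and 92.9, 91.4, and 91.5 CPM at 14 days. The log2 fold change was 0.87 (SE 0.09, q = 7.7e-05) at 3 hours, a rise of 1.83-fold, and it was 0.102 (SE 0.09, q = 0.426) at 3 days. BUB3 was also the most abundant of the 52 genes per length in controls, at 33.4 ± 2.83 FPKM (SD, n = 3). At library size only, BUB3 was still called higher at 3 hours. In FPKM its rise was smaller, from the 33.4 FPKM of controls to 44.0 ± 1.71 FPKM at 3 hours (SD, n = 3).

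BUB1, a checkpoint kinase, was at 4.87, 7.43, and 4.16 CPM in controls, 1.19, 0.664, and 0.951 CPM at 3 hours, 18.2, 19.7, and 16.2 CPM at 3 days, and 4.91, 8.097, and 7.94 CPM at 14 days. BUB1B, which encodes BUBR1, an inhibitor of APC/C, was at 13.8, 15.5, and 7.93 CPM in controls, 1.58, 1.54, and 2.09 CPM at 3 hours, 29.5, 26.4, and 25.5 CPM at 3 days, and 12.6, 17.01, and 17.4 CPM at 14 days. In both genes the TL3h libraries were the 3 lowest and the TL3d libraries the 3 highest of 12. BUB1 had log2 fold changes of −2.55 (SE 0.32, q = 0.0002097) at 3 hours and 1.72 (SE 0.30, q = 0.0114) at 3 days. BUB1B had −2.83 (SE 0.27, q = 5.9e-05) and 1.13 (SE 0.25, q = 0.0187), and the latter call was lost, with q between 0.0571 and 0.0658 when control 1, TL3d 1, or TL3d 2 was left out. TTK (chr12:66934801-66975987, plus strand), the kinase at the top of the checkpoint, was at 7.74, 10.5, and 5.42 CPM in controls, 0.961, 1.04, and 1.57 CPM at 3 hours, 34.2, 29.3, and 26.4 CPM at 3 days, and 6.79, 7.91, and 10.5 CPM at 14 days. It had log2 fold changes of −2.72 (SE 0.30, q = 0.000121) and 1.93 (SE 0.29, q = 0.009303), and its call at 3 days held under each alternative.

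MAD2L1, which encodes the checkpoint protein MAD2, was at 16.9, 18.5, and 11.01 CPM in controls, 7.57, 5.103, and 6.805 CPM at 3 hours, 42.4, 37.8, and 40.9 CPM at 3 days, and 13.04, 18.7, and 19.96 CPM at 14 days. Its fall at 3 hours, −1.25 (SE 0.24, q = 0.00205), was the smallest of the 6, and its rise at 3 days was 1.38 (SE 0.24, q = 0.0111). CDC20 (chr13:123296019-123309784, minus strand), the APC/C activator that the checkpoint restrains, was at 7.74, 10.7, and 6.62 CPM in controls, 2.31, 2.32, and 1.65 CPM at 3 hours, 20.8, 21.7, and 18.5 CPM at 3 days, and 9.08, 12.7, and 15.4 CPM at 14 days. Its log2 fold changes were −1.99 (SE 0.26, q = 0.000249) and 1.28 (SE 0.25, q = 0.0142), and the call at 3 days was lost, with q between 0.0512 and 0.0554 when control 1, TL3d 1, or TL3d 2 was left out. The remaining gene, KNTC1, a subunit of a complex that brings MAD proteins and dynein to kinetochores, had log2 fold changes of −2.699 (SE 0.40, q = 0.000521) and 1.61 (SE 0.38, q = 0.0223). The latter was lost, with q between 0.0609 and 0.0732 when control 2, TL3d 1, or TL3d 2 was left out.

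**Figure D2:**
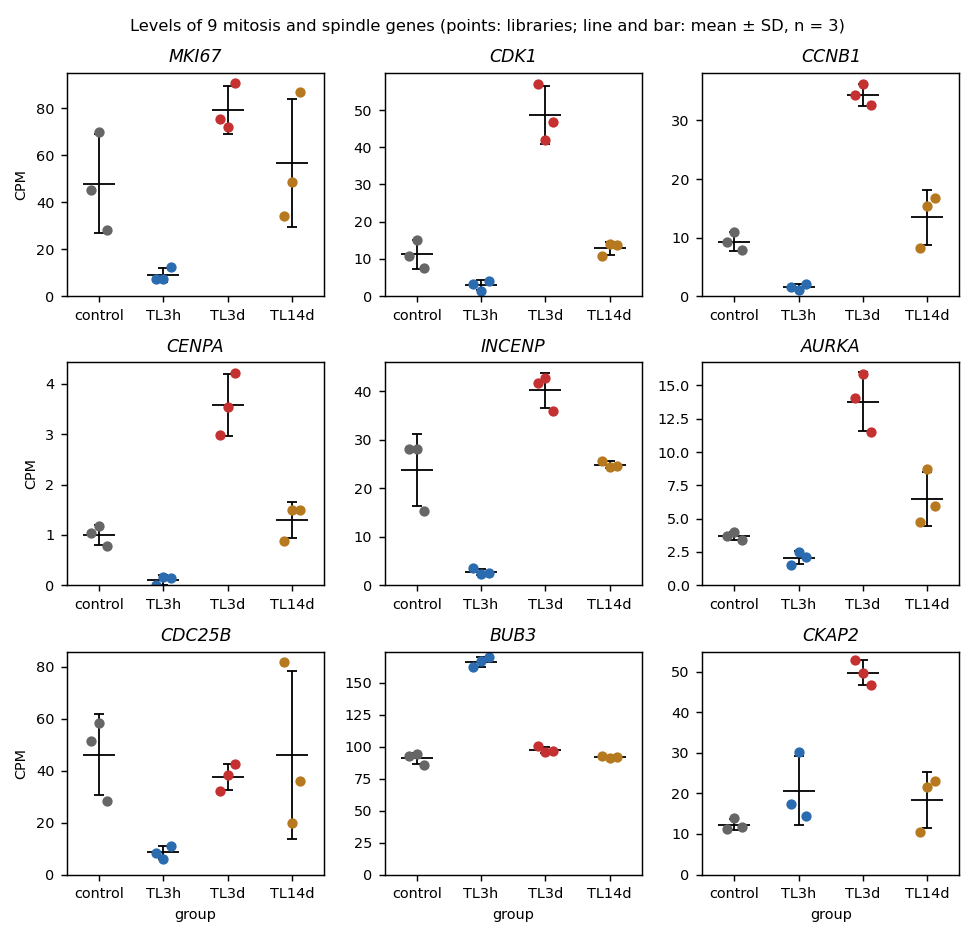
CPM of 9 of the 52 genes by group, with 1 point per library and a line and bar for the mean ± SD (n = 3); the y axes differ and start at 0. MKI67, CDK1, CCNB1, CENPA, INCENP, and AURKA are lowest at 3 hours and highest at 3 days, CDC25B does not exceed control at 3 days, BUB3 is highest at 3 hours, and CKAP2 does not fall at 3 hours.

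Of the 7 genes of the Aurora and Polo kinases and the chromosomal passenger complex, 6 fell at 3 hours and 5 rose at 3 days. AURKA, the kinase of the spindle poles, was at 3.702, 4.03, and 3.41 CPM in controls, 1.54, 2.49, and 2.16 CPM at 3 hours, 14.04, 15.9, and 11.5 CPM at 3 days, and 4.74, 8.75, and 5.96 CPM at 14 days. No group overlapped another. Its fall at 3 hours, −0.85 (SE 0.27, q = 0.0271), was small among these genes and was lost, with q between 0.0502 and 0.0789 when control 1, control 2, TL3h 1, or TL3h 3 was left out, whereas its rise at 3 days was 1.89 (SE 0.27, q = 0.00906). AURKA overlaps CSTF1 on the opposite strand in the gene table, and how strand was used in counting is not stated in the sources used here. AURKB, the kinase of the chromosomal passenger complex, was at 2.37, 3.18, and 2.36 CPM in controls, 0.692, 0.2904, and 0.695 CPM at 3 hours, 11.6, 9.02, and 7.65 CPM at 3 days, and 3.36, 4.67, and 4.199 CPM at 14 days. The 4 groups of AURKB were separate as well. The log2 fold changes were −2.22 (SE 0.35, q = 0.000658) at 3 hours and 1.84 (SE 0.33, q = 0.0118) at 3 days.

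INCENP, the scaffold of the passenger complex, was at 28.1, 28.02, and 15.3 CPM in controls and at 3.54, 2.41, and 2.52 CPM at 3 hours. It was at 41.7, 42.8, and 35.9 CPM at 3 days and 25.6, 24.3, and 24.6 CPM at 14 days. The fall at 3 hours was 8.42-fold, with −3.07 (SE 0.25, q = 3.6e-05) on the log2 scale, and had the smallest q of the 52 genes. At 3 days its log2 fold change was 0.75 (SE 0.23, q = 0.05003), just short of a call, with a q of 0.0155 to 0.144 over the alternatives. BIRC5, which encodes survivin, the third part of that complex, was at 0.5696, 0.3502, and 0.276 CPM in controls, 0.0384, 0.166, and 0.293 CPM at 3 hours, 0.924, 1.26, and 0.996 CPM at 3 days, and 1.01, 0.625, and 0.749 CPM at 14 days. The TL3h values stood for 1, 4, and 8 counts, and they overlapped the controls. BIRC5 was the only gene called neither at 3 hours, −1.24 (SE 0.58, q = 0.108), nor at 3 days, 1.402 (SE 0.54, q = 0.0906). Its q ranged from 0.0319 to 0.313 at 3 hours and from 0.0175 to 0.231 at 3 days over the alternatives.

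PLK1, the Polo kinase that acts from mitotic entry to cytokinesis, was at 13.1, 12.8, and 7.83 CPM in controls, 4.19, 4.07, and 3.77 CPM at 3 hours, 23.7, 20.2, and 21.3 CPM at 3 days, and 12.2, 14.02, and 13.4 CPM at 14 days. PLK4, which starts centriole duplication, was at 12.9, 12.6, and 6.27 CPM in controls, 4.77, 3.65, and 4.87 CPM at 3 hours, 27.8, 24.1, and 25.2 CPM at 3 days, and 12.7, 9.43, and 13.02 CPM at 14 days. In both, TL3h lay below and TL3d above all other libraries. PLK1 had log2 fold changes of −1.49 (SE 0.20, q = 0.000311) and 0.95 (SE 0.20, q = 0.0169), and PLK4 had −1.26 (SE 0.27, q = 0.00402) and 1.28 (SE 0.27, q = 0.0169). Both calls at 3 days were lost in some fits, that of PLK1 with q between 0.05098 and 0.0627 when control 2, TL3d 1, or TL3d 2 was left out and that of PLK4 with q between 0.05098 and 0.0606 when control 2, TL3d 1, or TL3d 2 was left out. TPX2, which activates AURKA on spindle microtubules, was at 18.7, 22.8, and 16.003 CPM in controls, 7.92, 4.52, and 7.21 CPM at 3 hours, 58.8, 52.4, and 54.4 CPM at 3 days, and 17.9, 26.5, and 27.2 CPM at 14 days. It had log2 fold changes of −1.55 (SE 0.24, q = 0.000656) and 1.52 (SE 0.24, q = 0.00971).

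All 9 kinesin motors fell at 3 hours, with log2 fold changes from −3.12 for KIF2C to −1.58 for KIF18A, and 8 of 9 rose at 3 days. KIF2C (chr13:121857299-121878843, minus strand), a kinesin that shortens microtubules at kinetochores, was at 5.25, 6.13, and 2.63 CPM in controls, 0.423, 0.332, and 0.841 CPM at 3 hours, 16.99, 16.9, and 17.8 CPM at 3 days, and 4.91, 6.55, and 7.78 CPM at 14 days. The log2 fold changes were −3.12 (SE 0.41, q = 0.000273) and 1.88 (SE 0.38, q = 0.0153), and the latter call was lost, with q between 0.0505 and 0.0536 when control 1, TL3d 1, or TL3d 2 was left out. KIF11, the motor that pushes the spindle poles apart, was at 15.8, 23.7, and 12.4 CPM in controls, 3.08, 2.61, and 3.48 CPM at 3 hours, 50.3, 48.6, and 47.98 CPM at 3 days, and 13.3, 20.2, and 26.2 CPM at 14 days. TL3h was again the lowest group and TL3d the highest. It had −2.502 (SE 0.29, q = 0.000153) and 1.498 (SE 0.28, q = 0.0132), and the call at 3 days was lost, with q = 0.0511 when control 1 was left out. KIF20A, which carries the passenger complex to the spindle midzone, was at 13.5, 17.7, and 8.78 CPM in controls, 3.08, 2.28, and 2.67 CPM at 3 hours, 36.6, 36.98, and 33.98 CPM at 3 days, and 11.2, 17.8, and 19.04 CPM at 14 days. It overlaps CDC23 on the opposite strand. It had −2.32 (SE 0.28, q = 0.000192) and 1.43 (SE 0.27, q = 0.0137), with the latter lost, with q between 0.0503 and 0.0522 when control 1 or TL3d 2 was left out.

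KIF23, a motor of the centralspindlin complex in cytokinesis, was at 8.73, 12.6, and 6.55 CPM in controls, 1.42, 1.16, and 1.13 CPM at 3 hours, 21.4, 17.8, and 23.4 CPM at 3 days, and 7.598, 11.3, and 14.6 CPM at 14 days. It had log2 fold changes of −2.904 (SE 0.31, q = 0.000102) and 1.17 (SE 0.29, q = 0.0259), and the call at 3 days was lost, with q between 0.05497 and 0.0877 when control 1, control 3, TL3d 1, TL3d 2, or TL3d 3 was left out. KIF4A, a motor that binds chromosome arms, had −2.03 (SE 0.30, q = 0.000501) and 1.74 (SE 0.29, q = 0.0105) and kept both calls under each alternative. KIF14, KIF15, and KIF20B fell at 3 hours, with log2 fold changes of −1.74, −2.304, and −1.83. They rose by 1.04, 0.83, and 0.97 at 3 days, and these calls were among the weakest. That of KIF14 was lost, with q between 0.0513 and 0.134 when control 1, control 2, control 3, TL3h 1, TL3h 3, TL3d 1, TL3d 2, or TL3d 3 was left out, without the filter on low counts or without control 3 and TL14d 1 together. That of KIF15 was lost, with q between 0.0504 and 0.0946 when control 1, control 2, control 3, TL3d 1, TL3d 2, or TL3d 3 was left out, in a fit of only the 6 libraries compared or without control 3 and TL14d 1 together. That of KIF20B was lost, with q between 0.0518 and 0.106 when control 1, control 2, control 3, TL3h 2, TL3d 1, TL3d 2, or TL3d 3 was left out, or without control 3 and TL14d 1 together. KIF18A, which damps chromosome movements at the plate, was not called at 3 days, with 0.79 (SE 0.26, q = 0.0601) and a q of 0.00819 to 0.161 over the alternatives.

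All 6 centromere and kinetochore genes fell at 3 hours, and 4 rose at 3 days. CENPA (chr2:159193282-159198814, minus strand), the histone H3 variant that marks centromeres, was at 1.04, 1.18, and 0.778 CPM in controls and at 0, 0.166, and 0.146 CPM at 3 hours, which stood for 0, 4, and 4 counts. A count of 0 allows up to 3 counts, or 0.115 CPM, in that library. It was at 2.97, 3.54, and 4.21 CPM at 3 days and 0.874, 1.49, and 1.497 CPM at 14 days. Its log2 fold change of −3.22 (SE 0.68, q = 0.00346) at 3 hours was the lowest of the 52 genes and, at these counts, depends on the prior count of the fit. At 3 days it was 1.84 (SE 0.57, q = 0.0523), with a q of 5.4e-06 to 0.132 over the alternatives. CENPE, a kinesin that moves chromosomes to the plate, was at 6.27, 9.63, and 7.65 CPM in controls, 3.31, 2.95, and 3.77 CPM at 3 hours, 13.8, 15.6, and 16.8 CPM at 3 days, and 5.14, 6.901, and 11.5 CPM at 14 days. The log2 fold changes were −1.23 (SE 0.29, q = 0.00648) and 0.97 (SE 0.29, q = 0.0438), and the call at 3 days was lost, with q between 0.05299 and 0.138 when control 1, control 2, control 3, TL3h 1, TL3h 2, TL3h 3, TL3d 1, TL3d 2, or TL3d 3 was left out, or without the filter on low counts. CENPF, a large protein of the outer kinetochore, was at 21.9, 35.6, and 14.5 CPM in controls, 4.54, 2.32, and 4.32 CPM at 3 hours, 42.9, 48.04, and 52.3 CPM at 3 days, and 19.1, 19.02, and 32.6 CPM at 14 days. It fell at 3 hours, with −2.68 (SE 0.38, q = 0.000402), and was not called at 3 days, with 0.99 (SE 0.36, q = 0.0772) and a q of 0.0318 to 0.188 over the alternatives.

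NDC80, NUF2, and SPC25 encode subunits of the complex that grips microtubules. NDC80 was at 2.92, 5.05, and 2.53 CPM in controls, 1.04, 0.913, and 1.76 CPM at 3 hours, 11.8, 11.98, and 13.4 CPM at 3 days, and 2.82, 5.65, and 6.87 CPM at 14 days. It had −1.498 (SE 0.40, q = 0.0116) and 1.83 (SE 0.39, q = 0.0177). The fall was lost, with q = 0.0506 when control 2 was left out, and the rise was lost, with q between 0.0559 and 0.0682 when control 1, TL3d 1, or TL3d 2 was left out. NUF2 had log2 fold changes of −2.12 (SE 0.26, q = 0.000196) and 1.75 (SE 0.25, q = 0.00906), both called under each alternative. SPC25 had −1.999 (SE 0.51, q = 0.00916) and 1.61 (SE 0.48, q = 0.0447), and the rise was lost, with q between 0.0502 and 0.125 when control 1, control 2, control 3, TL3h 3, TL3d 1, TL3d 2, TL3d 3, TL14d 2, or TL14d 3 was left out, with library size only, without the filter on low counts or without control 3 and TL14d 1 together.

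Of the 8 genes of the spindle and of cytokinesis, 6 fell at 3 hours and 7 rose at 3 days. PRC1, which bundles the microtubules of the central spindle, was at 17.2, 20.2, and 11.1 CPM in controls, 3.31, 2.697, and 3.22 CPM at 3 hours, 38.4, 38.3, and 37.8 CPM at 3 days, and 18.7, 16.95, and 19.7 CPM at 14 days. It had log2 fold changes of −2.39 (SE 0.21, q = 4.3e-05) and 1.24 (SE 0.20, q = 0.01001), and both calls held under each alternative. ECT2, the activator of RhoA in the cleavage furrow, was at 9.99, 12.9, and 6.697 CPM in controls, 1.19, 0.788, and 1.68 CPM at 3 hours, 32.1, 29.4, and 26.8 CPM at 3 days, and 6.32, 10.7, and 13.9 CPM at 14 days. It had −3.01 (SE 0.38, q = 0.000214) and 1.58 (SE 0.35, q = 0.0186), and the rise was lost, with q between 0.0505 and 0.0663 when control 1, control 2, TL3d 1, or TL3d 2 was left out. ANLN, anillin, which links actin and septins in the furrow, was at 12.9, 14.3, and 6.77 CPM in controls, 6.34, 11.5, and 10.6 CPM at 3 hours, 43.3, 45.6, and 31.9 CPM at 3 days, and 8.44, 13.7, and 14.3 CPM at 14 days. Of the TL3h libraries of ANLN, 2 lay within the range of the controls and TL3h 1 lay below it. ANLN was not called at 3 hours, with −0.26 (SE 0.33, q = 0.559), and rose at 3 days, with 1.83 (SE 0.34, q = 0.0131). That rise was lost, with q = 0.0513 when TL3d 2 was left out.

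CKAP2, a spindle protein that binds microtubules, was higher in all 3 TL3h libraries than in any control. It was at 11.2, 13.9, and 11.7 CPM in controls, 17.4, 30.3, and 14.3 CPM at 3 hours, 52.8, 49.7, and 46.8 CPM at 3 days, and 10.6, 21.6, and 22.98 CPM at 14 days. The difference at 3 hours was not called, with 0.75 (SE 0.32, q = 0.0815) and a q of 0.03204 to 0.553 over the alternatives, and the rise at 3 days was 2.02 (SE 0.33, q = 0.0102). ASPM, a protein of the spindle poles, was at 9.26, 12.7, and 7.17 CPM in controls, 2.04, 1.87, and 2.195 CPM at 3 hours, 12.8, 17.95, and 24.6 CPM at 3 days, and 6.12, 10.5, and 16.8 CPM at 14 days. It fell at 3 hours, with −2.25 (SE 0.39, q = 0.00119), and was not called at 3 days, with 0.93 (SE 0.37, q = 0.101) and a q of 0.0499 to 0.254 over the alternatives. HMMR, a hyaluronan receptor that also binds the spindle, was at 4.98, 4.703, and 2.61 CPM in controls, 0.577, 0.539, and 0.439 CPM at 3 hours, 9.59, 11.1, and 9.39 CPM at 3 days, and 3.19, 4.75, and 6.48 CPM at 14 days. The log2 fold changes were −2.98 (SE 0.35, q = 0.000148) and 1.29 (SE 0.31, q = 0.0242), and the rise was lost, with q between 0.0508 and 0.0841 when control 1, control 2, control 3, TL3d 1, or TL3d 2 was left out. The microtubule-binding genes NUSAP1 and DLGAP5 kept both calls under each alternative, with −1.78 and −2.96 at 3 hours and 1.65 and 1.67 at 3 days on the log2 scale.

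The 3 genes that open anaphase all rose at 3 days, and 2 of them fell at 3 hours. UBE2C, the ubiquitin-conjugating enzyme of APC/C, was at 5.89, 8.13, and 5.74 CPM in controls, 3.46, 1.08, and 2.305 CPM at 3 hours, 25.5, 26.2, and 25.2 CPM at 3 days, and 6.99, 12.3, and 10.97 CPM at 14 days. It had log2 fold changes of −1.53 (SE 0.37, q = 0.00734) and 1.96 (SE 0.37, q = 0.0136), and the rise was lost, with q between 0.0505 and 0.0525 when control 1 or TL3d 2 was left out. ESPL1 (chr4:37100607-37123345, plus strand), separase, which cuts the cohesin ring, was at 6.46, 6.65, and 4.31 CPM in controls, 2.46, 1.95, and 3.0000 CPM at 3 hours, 26.5, 22.7, and 20.1 CPM at 3 days, and 6.12, 9.02, and 10.3 CPM at 14 days. It had −1.23 (SE 0.26, q = 0.00389) and 1.99 (SE 0.27, q = 0.00794), and the latter had the smallest q of the 52 genes at 3 days. PTTG1, securin, the inhibitor of separase, was at 4.98, 6.303, and 6.42 CPM in controls, 3.04, 4.56, and 5.41 CPM at 3 hours, 10.1, 10.7, and 10.2 CPM at 3 days, and 5.75, 8.42, and 7.94 CPM at 14 days. The TL3h libraries of PTTG1 overlapped the controls. It was not called at 3 hours, with −0.44 (SE 0.24, q = 0.164). Its rise at 3 days was 0.803 (SE 0.24, q = 0.0459), and it was lost, with q between 0.0605 and 0.145 when control 1, control 2, control 3, TL3h 2, TL3d 1, TL3d 2, TL3d 3, or TL14d 3 was left out, or without the filter on low counts.

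All 4 condensin genes rose at 3 days, and 3 fell at 3 hours. NCAPG (chr2:8357535-8404006, plus strand), a subunit that contacts DNA, was at 5.06, 6.85, and 3.51 CPM in controls, 1.11, 1.24, and 1.35 CPM at 3 hours, 23.9, 20.6, and 19.6 CPM at 3 days, and 4.77, 8.37, and 8.27 CPM at 14 days. It had log2 fold changes of −2.05 (SE 0.30, q = 0.0004402) and 2.06 (SE 0.29, q = 0.00851). SMC2 and SMC4 form the ATPase core of condensin. SMC2 was at 35.6, 36.7, and 19.4 CPM in controls, 9.73, 5.601, and 9.04 CPM at 3 hours, 79.9, 74.1, and 70.8 CPM at 3 days, and 32.2, 25.5, and 35.3 CPM at 14 days. SMC4 was at 34.2, 35.5, and 24.8 CPM in controls, 18.8, 17.3, and 21.2 CPM at 3 hours, 85.9, 81.1, and 73.2 CPM at 3 days, and 25.2, 48.8, and 47.4 CPM at 14 days. Both were lowest at 3 hours, SMC2 with −1.91 (SE 0.28, q = 0.0004402) and SMC4 with −0.72 (SE 0.24, q = 0.0319). The fall of SMC4 was lost, with q between 0.0632 and 0.102 when control 1, control 2, TL3h 1, or TL3h 2 was left out. At 3 days SMC2 had 1.29 (SE 0.27, q = 0.0166) and SMC4 had 1.35 (SE 0.24, q = 0.0118), and the call of SMC2 was lost, with q between 0.0569 and 0.05802 when TL3d 1 or TL3d 2 was left out. NCAPH, the subunit that closes the condensin ring, was not called at 3 hours, with −0.63 (SE 0.35, q = 0.164), and rose at 3 days, with 1.86 (SE 0.35, q = 0.0137). The rise was lost, with q between 0.0526 and 0.0536 when control 1, control 2, or TL3d 2 was left out.

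**Figure D3:**
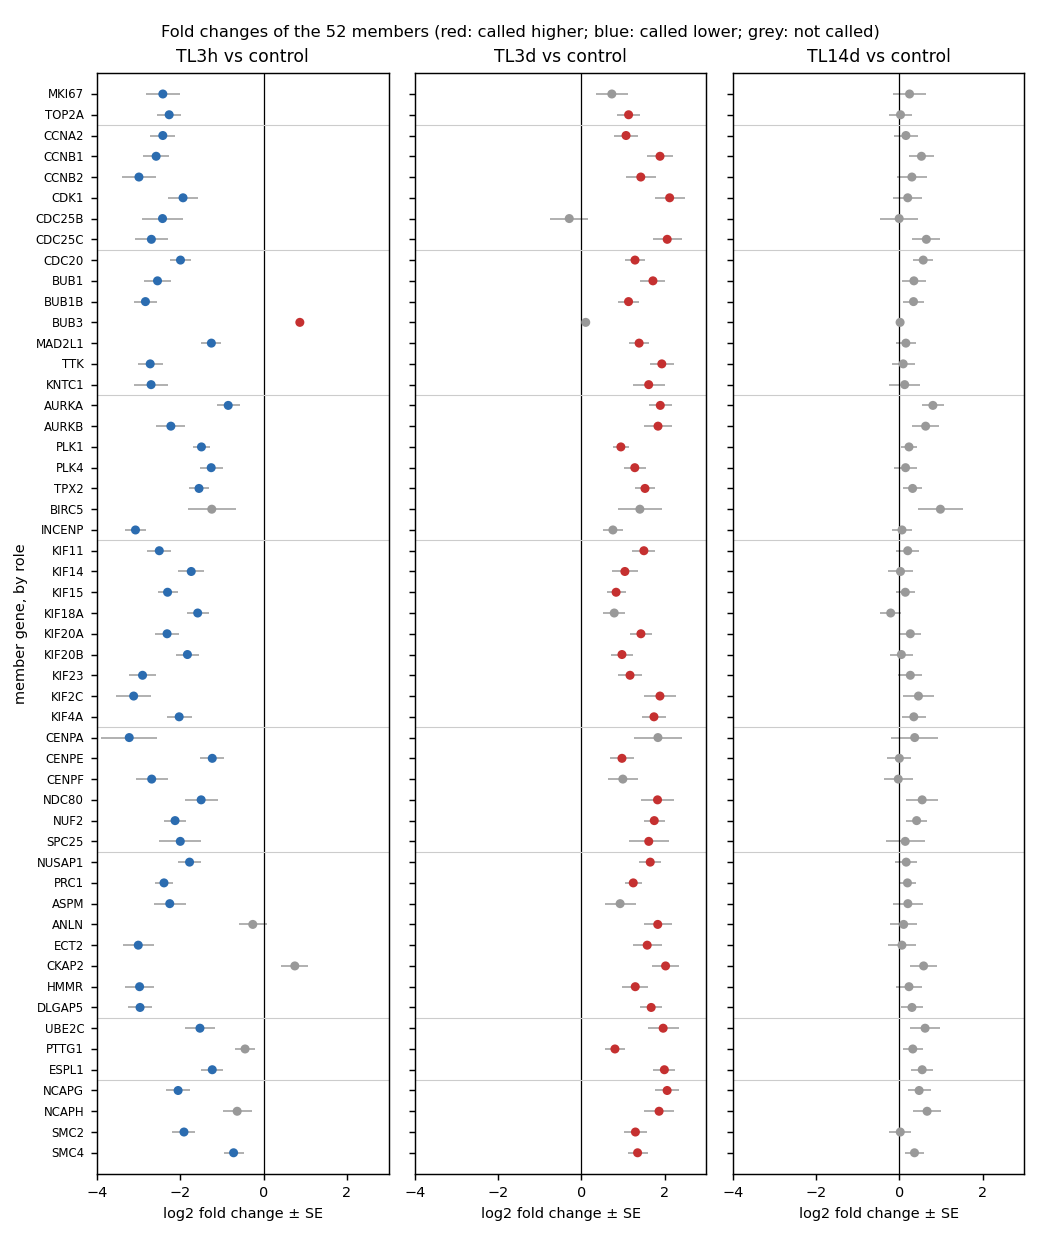
Log2 fold changes against control (x axis, with SE) of the 52 genes (y axis, by role), with 1 panel for each time after surgery; red points were called higher, blue points lower, and grey points were not called. Of the 52 points, 46 are blue and 1 is red at 3 hours, 43 are red at 3 days, and all are grey at 14 days.

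At 14 days, none of the 52 genes was called different from control by edgeR, and 0% of all genes tested were called. An unadjusted p of 0.05 or less was found for 2 of the 52 genes, AURKA and CDC20, and for 1538 of all genes, and DESeq2 and limma-trend called 0 of the 52. The median log2 fold change of the 52 genes was 0.24, and that of all genes was 0.02. In 3 genes, AURKA, AURKB, and BIRC5, the 3 TL14d libraries lay above the 3 controls, as they did in 6.03% of all genes. The smallest q was 0.388, for AURKA, with a log2 fold change of 0.804 ± 0.27 (SE). The 95% interval of the log2 fold change, taken from its SE, was −0.48 to 0.88 for CDK1, −0.05 to 1.11 for CCNB1, and −0.52 to 1.01 for MKI67. Each of these intervals includes 0. Of the 52 genes, 26 changed the sign of their fold change at 14 days under at least 1 alternative.

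Between 3 days and 14 days, 16 of the 52 genes fell and none rose, whereas 1.59% of all genes fell. The 16 were CCNB1, CDK1, BUB1, MAD2L1, TTK, TPX2, KIF11, KIF4A, NUF2, NUSAP1, PRC1, ANLN, DLGAP5, ESPL1, NCAPG, and SMC2. CDK1 had −1.92 (SE 0.36, q = 0.0335), TTK had −1.84 (SE 0.29, q = 0.0243), and ANLN had −1.73 (SE 0.34, q = 0.0357), which were the largest falls. In 48 of the 52 genes all 3 TL14d libraries lay below all 3 TL3d libraries, as they did in 14.0% of all genes. MKI67 was not called, with −0.48 (SE 0.39, q = 0.494). The number of calls was not stable. It was 0 without TL3d 1, TL3d 2, TL14d 1, or TL14d 3, 1 without TL3d 3, 6 without TL3h 3 or control 1, 7 without control 2, 9 without TL3h 1, 12 without TL14d 2, 17 without TL3h 2, 23 without control 3, and 0 in a fit of only the 6 libraries compared, whereas DESeq2 called 46. The share of all genes called, 2.24% with all libraries, moved as well. It was 0% to 3.87% when 1 library was left out, 0.105% in the fit of 6 libraries, and 12.5% with DESeq2.

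The group means had the order TL3h, control, TL14d, and TL3d from low to high in 46 of the 52 genes and in 7.31% of all genes, although control and TL14d differed by a call in none of them. The 3 TL3h libraries were the 3 lowest of the 12 in 46 genes, as they were in 16.6% of all genes, and the 3 TL3d libraries were the 3 highest in 47 genes, as they were in 4.79% of all genes. Both held in 43 of the 52 genes and in 1.53% of all genes. Most of the genes ranked the 3 controls alike, and the 3 TL14d libraries as well. Control 2 was the highest control in 45 of the 52 genes and control 3 the lowest in 46, with median log2 ratios to the control mean of 0.29 and −0.47. TL14d 3 was the highest and TL14d 1 the lowest of their group in 38 and 40 genes, with medians of 0.49 and −0.12. TL3h 2 was the lowest of its group in 34 genes, with a median of −2.05 beside −1.65 and −1.67 in the other TL3h libraries. The 3 TL3d libraries had medians of 1.42, 1.38, and 1.38. The median SD of log2 CPM over the 52 genes was 0.44 in controls, 0.28 at 3 hours, 0.13 at 3 days, and 0.37 at 14 days, beside 0.23, 0.26, 0.21, and 0.32 over all genes whose mean was 1 CPM or more.

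Leaving out control 3 and TL14d 1 together, an alternative chosen after the values were seen, gave 47 calls at 3 hours, 40 at 3 days, and 0 at 14 days. Among all genes, that fit called 50.3%, 25.6%, and 6.64%, beside 45.4%, 17.6%, and 0% with all libraries. The median log2 fold change at 3 days was then 1.21, and that at 3 hours was −2.33. With libraries scaled by their total count alone, all genes tested had a median of −0.47 at 3 hours in place of 0.02. The 52 genes then had a median of −2.599, with 49 lower and 1 higher.

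**Figure D4:**
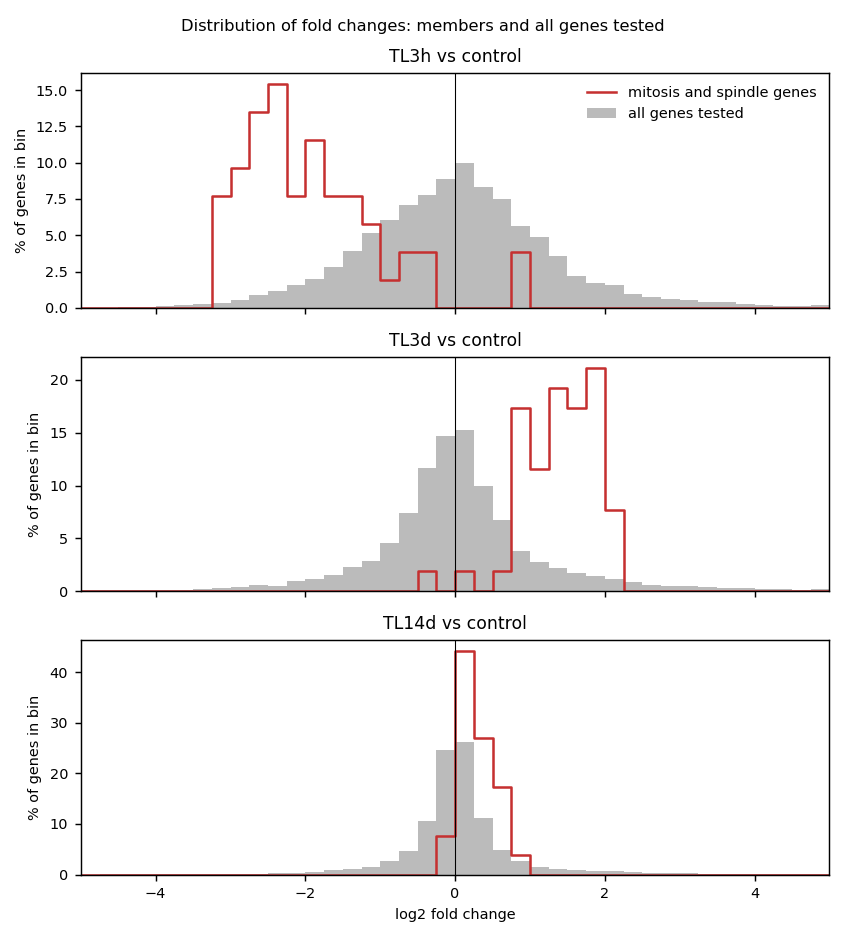
Share of genes (y axis, %) by log2 fold change against control (x axis, bins of 0.25) for all 14835 genes tested (grey bars) and for the 52 mitosis and spindle genes (red line), with 1 panel for each time after surgery. The red line lies to the left of the grey bars at 3 hours around its median of −2.09, to the right at 3 days around 1.43, and near 0 at 14 days around 0.24.

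Levels per length, in the deposited FPKM, also differed among the 52 genes. The median of the 52 genes was 2.55 FPKM in controls, 0.396 FPKM at 3 hours, 7.19 FPKM at 3 days, and 3.16 FPKM at 14 days. The medians of all genes tested were 7.40, 5.27, 7.64, and 7.72 FPKM. In controls, BUB3 was followed by CDC25B, at 16.3 ± 5.98 FPKM, MAD2L1, at 11.2 ± 3.2004 FPKM, and UBE2C, at 9.32 ± 2.13 FPKM (SD, n = 3). The SDs of MAD2L1 and UBE2C overlapped. CDC25C, at 0.389 ± 0.123 FPKM, and CENPE, at 0.737 ± 0.169 FPKM, were the lowest. At 3 days CDK1, at 38.6 ± 6.39 FPKM, UBE2C, at 36.5 ± 1.55 FPKM, and BUB3, at 36.1 ± 1.32 FPKM, were the highest, and these did not differ beyond their spread.

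Other genes of the cell cycle were followed in 8 lists, whose counts stand beside 23.2% of all genes higher and 22.2% lower at 3 hours and 10.6% higher at 3 days, when 1039 of the 14835 genes were lower. FOXM1, the transcription factor that activates many mitotic genes, was at 5.72, 7.58, and 4.82 CPM in controls, 1.04, 0.788, and 0.878 CPM at 3 hours, 16.3, 17.5, and 19.2 CPM at 3 days, and 6.52, 6.52, and 8.301 CPM at 14 days. It moved as most of the 52 genes did, with −2.74 (SE 0.23, q = 3.7e-05) at 3 hours and 1.55 (SE 0.21, q = 0.00805) at 3 days. MYBL2, a factor that acts beside it, was at 3.58, 2.95, and 2.21 CPM in controls, 1.11, 2.45, and 1.83 CPM at 3 hours, 31.5, 22.2, and 17.2 CPM at 3 days, and 2.08, 6.38, and 6.05 CPM at 14 days. MYBL2 was not called at 3 hours, with −0.698 (SE 0.45, q = 0.231), and rose at 3 days, with 3.02 (SE 0.47, q = 0.00971). Of the 20 regulators and transcription factors in that list, 4 were higher (20%) and 7 lower (35%) at 3 hours, and 6 were higher (30%) and 2 lower at 3 days.

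CDKN1A, which encodes the CDK inhibitor p21, was at 135, 104, and 52.6 CPM in controls, 1273, 1079.8, and 839 CPM at 3 hours, 1331, 1159, and 885 CPM at 3 days, and 142, 969, and 586 CPM at 14 days. All TL3h and TL3d libraries lay above all controls. It rose at 3 hours, with 3.45 (SE 0.62, q = 0.00145), and at 3 days, with 3.53 (SE 0.62, q = 0.0114), that is, both when most of the 52 genes were low and when they were high. Of the 11 CDK inhibitors and arrest genes, 5 were higher and 3 lower at 3 hours, and 3, CDKN1A, GADD45A, and SFN, were higher at 3 days. The list of G1 cyclins and kinases also held other cell cycle genes: CCNG1, CCNG2, WEE1, PKMYT1, CDC25A, CKS1B, and CKS2. Of its 14 genes, 1 was higher and 2 lower at 3 hours, with the largest change in CCNG2, at −1.66 (SE 0.15, q = 4.3e-05). At 3 days 7 were higher and none lower, with the largest change in CCNE2, cyclin E2, at 2.601 (SE 0.38, q = 0.00906). CDC25A, which activates CDK2, was at 6.19 ± 2.73 CPM in controls, 3.55 ± 0.615 CPM at 3 hours, and 14.6 ± 3.401 CPM at 3 days (SD, n = 3), with −0.800 (SE 0.33, q = 0.0747) and 1.24 (SE 0.33, q = 0.0326). CCND1 was not analysed here.

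Most of the further kinetochore, spindle, and DNA replication genes were called lower at 3 hours. Of 33 further kinetochore and checkpoint genes, 25 were lower and 1 higher at 3 hours, and 21 were higher and none lower at 3 days. HJURP, the chaperone that loads CENPA, had −2.99 (SE 0.34, q = 0.000136) at 3 hours, and CENPP, a centromere protein, had 2.49 (SE 0.44, q = 0.0114) at 3 days. Of 28 further spindle, motor, and cytokinesis genes, 19 were lower and 1 higher at 3 hours, and 15 were higher and none lower at 3 days. The mitotic kinase PBK had −4.22 (SE 0.44, q = 8.6e-05) at 3 hours, and SHCBP1, a protein of the midbody, had 2.62 (SE 0.41, q = 0.00971) at 3 days. Of 34 DNA replication genes, 23 were lower and 2 higher at 3 hours, and 15 were higher and none lower at 3 days. MCM2, a subunit of the replicative helicase, was at 39.04 ± 17.5 CPM in controls, 10.4 ± 0.2202 CPM at 3 hours, and 70.1 ± 13.2 CPM at 3 days (SD, n = 3), with −1.91 (SE 0.30, q = 0.000701) and 0.84 (SE 0.29, q = 0.0678). GINS1 had −2.51 (SE 0.51, q = 0.00298) at 3 hours, and RRM2, a subunit of the enzyme that makes deoxyribonucleotides, had 2.63 (SE 0.45, q = 0.0111) at 3 days.

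Of 14 further condensin and cohesin genes, 8 were lower and 1 higher at 3 hours, and 3 were higher and 1 lower at 3 days. ESCO2, which acetylates cohesin, had −2.31 (SE 0.38, q = 0.0008602) at 3 hours, and the condensin II subunit NCAPG2 had 1.73 (SE 0.20, q = 0.00695) at 3 days. Of 14 APC/C subunits and regulators, 4 were higher (28.6%) and 2 lower (14.3%) at 3 hours, and 2 were higher (14.3%) and none lower at 3 days, shares near those of all genes. UBE2S, a ubiquitin-conjugating enzyme that works beside UBE2C, rose at 3 hours, with 2.16 (SE 0.30, q = 0.000345), when UBE2C fell. FBXO5, an inhibitor of APC/C, had 1.23 (SE 0.20, q = 0.0102) at 3 days. At 14 days 0 genes of the 8 lists were called.

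**Figure D5:**
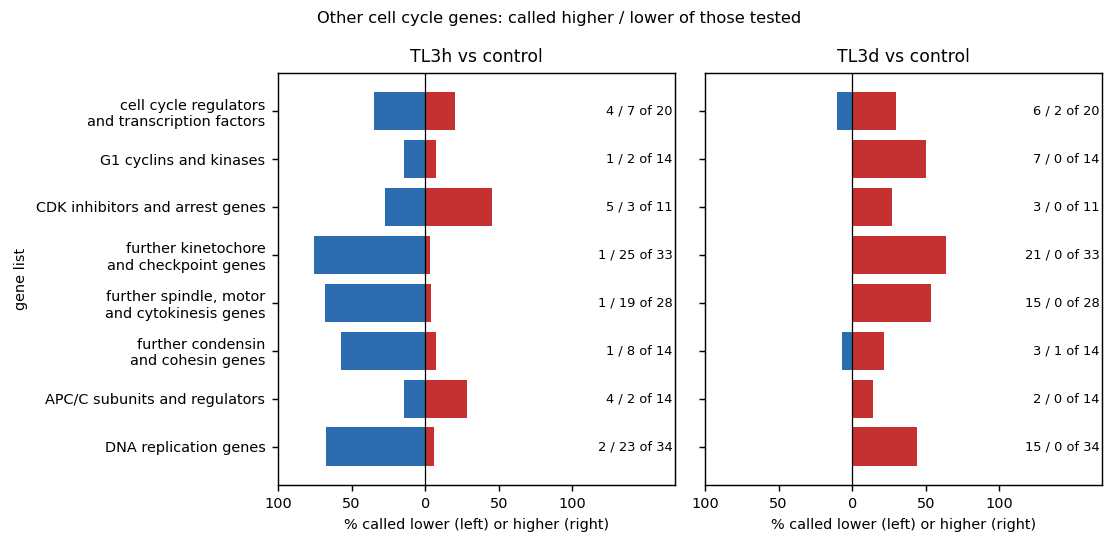
Share of the tested genes of 8 other cell cycle lists (y axis) called lower (blue, to the left) or higher (red, to the right) than control (x axis, %) at 3 hours and 3 days, with the counts of genes called higher, called lower, and tested beside each bar. The kinetochore, spindle, and DNA replication lists are mostly blue at 3 hours, with 25 of 33, 19 of 28, and 23 of 34 genes, and red at 3 days, with 21, 15, and 15 genes.

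Levels of marker genes of several cell types differed between groups. Whether the number of these cells or their RNA per cell differed was not tested. All 6 neutrophil markers were higher at 3 hours, with a summed level of 3.75 to 90.6 CPM in controls, 1088 to 2925 CPM at 3 hours, 254 to 654 CPM at 3 days, and 3.16 to 2039 CPM at 14 days. The highest of the latter values, in TL14d 2, was almost all MMP9, at 1992 CPM, and the other 5 markers were at 0.897 to 24.6 CPM in that library. Of 6 monocyte and macrophage markers, 2 were higher at 3 hours and 4 at 3 days, with sums of 58.3 to 403, 428 to 679, 1093 to 1565, and 70.5 to 333 CPM in the 4 groups. Of 8 conjunctival epithelium markers, 1 was higher and 2 lower at 3 hours, and 1 was higher at 3 days. None of the 6 fibroblast markers was called against control, and their sums were 12161 to 76287, 105042 to 125553, 1328 to 64684, and 11014 to 57032 CPM. Of 5 endothelium markers 2 were higher at 3 hours. The sums of all 5 were 63.7 to 275 CPM in controls, 606 to 1211 CPM at 3 hours, 294 to 548.5 CPM at 3 days, and 88.8 to 282 CPM at 14 days. PECAM1 made up most of the rise at 3 hours, with a mean of 716 CPM beside 55.8 CPM in controls. The means of CDH5 and VWF were also higher. Those of KDR (18.6 beside 32.8 CPM) and TEK (6.36 beside 8.09 CPM) were lower. Of 5 T cell markers 1 was lower at 3 hours, and of 4 B and plasma cell markers 1 was higher at 3 hours and 1 at 3 days. No goblet cell, smooth muscle and myofibroblast, or skeletal muscle marker was called. The smooth muscle and myofibroblast sums were still above all controls in every TL3h and TL3d library. They were 12.4 to 42.0, 144 to 175, 51.6 to 1070, and 11.1 to 944 CPM in the 4 groups. Control 3, the lowest control for the 52 genes, had the lowest epithelium sum (5686 CPM) and the highest neutrophil, macrophage, and fibroblast sums of the 3 controls. Other libraries differed from this. TL14d 1, the lowest of its group in most of the genes, had the lowest epithelium, neutrophil, and macrophage sums of its group (12849, 3.16, and 70.5 CPM). Its fibroblast sum was the middle one. TL3d 3 had the lowest epithelium and highest fibroblast sums of its group (8852 and 64684 CPM). Its median log2 ratio over the 52 genes, 1.38, was close to those of TL3d 1 and TL3d 2. The part of these cells in the levels of the 52 genes was not tested.

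In the gene table, 8 of the 52 genes overlap another gene on the opposite strand. Of the 52 genes, 37 had a fractional count in at least 1 library. The table of transcripts listed 107 transcripts of the 52 genes, and 27 genes had 1 transcript each.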

How the data were processed

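RNA of 12 conjunctiva libraries (TruSeq Stranded mRNA kit, 150 bp paired-end reads) was mapped by the authors to OryCun2.0 with STAR 2.6.0c and quantified in GeneData Profiler Genome. The authors deposited estimated counts per gene and transcript, of which 23.4% per gene were fractions, and FPKM values, which divide by length and depth. How reads with several placements and strand were treated is not given in the sources used here.

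Groups were taken from the labels. Estimated counts were rounded to whole numbers, filtered by filterByExpr (minimum count 10, total 15), scaled by TMM, and tested in 1 quasi-likelihood fit of all 12 libraries without covariates in edgeR 4.0.16 (R 4.3.3), with Benjamini-Hochberg adjustment over 14835 genes and a threshold of 0.05. The plan named counts, and its test was kept for these estimated counts. SEs come from the fold change and the F statistic, and fitted fold changes used a prior count of 0.125. DESeq2 1.42.0, limma 3.58.1, other scalings, no filter, fewer libraries, and a replicate block were alternatives. The spread over genes used a pseudocount of 0.5 CPM.

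Values per library are given for a fixed set of members chosen by role, for the 3 called members with the largest fold change in each comparison, and for members called against the majority, and other genes were named by list. The members and lists were chosen with earlier results of these data known. Per the study, each operated group stands for 3 eyes, with 1 eye operated per rabbit, whereas for the controls the sources used here do not say which rabbits they came from, and p-values measure only the spread between these libraries. A count of 0 allows up to 3 counts (95% confidence), or 0.0712 to 0.124 CPM, for counting error only. No 2 libraries of a group agreed within counting noise. The reference table of another rabbit assembly was used only to match gene IDs to names.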

Additional observations from a re-analysis of the deposited data

Results flagged for a closer look

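The change from control differed between time points in many of the 52 genes. By the test of TL3d against TL3h, the effect at 3 days lay above that at 3 hours in 51 genes and below it in 1 gene, BUB3. By the test of TL14d against TL3d, the effect at 14 days lay below that at 3 days in 16 genes.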

How the results depend on the processing

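The calls at 3 hours and between 3 hours and 3 days held best. At 3 hours, 44 to 49 of the 52 genes were called when 1 library was left out and 47 to 50 under the other settings, and between 3 hours and 3 days 52 were called throughout. At 3 days, 43 genes were called, with 19 to 47 when 1 library was left out and 39 to 48 otherwise. Between 14 and 3 days, 16 were called, with 0 to 23 when 1 library was left out, 46 with DESeq2, 0 in a fit of only the 6 libraries compared, and 8 with the replicate block. The share of all genes called between these times was 2.24%, and it was 0% to 3.87%, 12.5%, 0.105%, and 1.94% in those fits. The lowest of these counts came with fewer samples in the fit, but so did the count of 23, without control 3. The causes of these differences, including that with DESeq2, were not tested. At 14 days no setting called any of the 52 genes against control, while of all genes DESeq2 called 2.47%, the fit without TL14d 1 called 4.74%, and that without control 3 and TL14d 1 together called 6.64%.

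The sign of the fold change at 14 days against control changed in 26 of the 52 genes in at least 1 setting. Of those with printed values, MKI67 ranged from −0.205 to 0.62 on the log2 scale and CDK1 from −0.025 to 0.48 when 1 library was left out. CDC25B between 14 and 3 days ranged from −0.43 without TL14d 1 to 0.65 without TL14d 2 and was at −0.43 without control 3 and TL14d 1 together. None of these was called, and 0 of the called genes changed sign in any comparison. Over the alternatives of the single-gene values tallied, 3180 values kept their direction and their side of the threshold. Of the others, 153 lost a call, 22 gained one, and 5 changed sign. This tally held all 52 genes at 3 hours, at 3 days, and between these times. For the comparisons with 14 days it held only a few chosen genes, such as CDK1 and MKI67. Most of the 26 genes whose sign changed at 14 days are therefore outside it. So are most of the 16 genes called between 3 and 14 days, of which 0 were called under every alternative.

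The replicate numbers in the labels are not stated to mark pairs. Of 18 same-numbered pairs of libraries, 8 had deviations from their group means that correlated at over 0.1 (r from −0.147 to 0.481, across genes). Pairs with different numbers had r from −0.525 to 0.391. These ranges overlap, so the correlations do not decide whether the numbers mark pairs. The numbers were not taken as pairs because no pairing is stated. With the replicate block, 47 genes were called at 3 hours, 41 at 3 days, 0 at 14 days, and 52 between 3 hours and 3 days. At a level near 3 counts, as for CENPA, CDC25C, and BIRC5 at 3 hours, depth limits the size of a fall that can be measured.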
